A study of Mus musculus with 14 samples.

Results

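Htr2c and 9 genes known for the epithelium of the choroid plexus (Ttr, Folr1, Clic6, Otx2, Kl, Aqp1, Slc4a5, Sostdc1 and Kcne2) were followed through RNA-seq libraries of embryonic mouse hippocampus. They are 10 of the 17453 named genes of the gene table. The genes were chosen by name with results from these libraries already known, Htr2c from its measured values in Dp(16)1Yey mice, and where a name had several rows the row with the highest mean was kept. The Htr2c values of the Dp(16)1Yey comparison are therefore a description and carry no test.

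The choroid plexus is a sheet of epithelium over a vascular core that hangs into the brain ventricles and secretes cerebrospinal fluid. In the lateral ventricle it is attached along the edge of the developing hippocampus, next to the cortical hem. Its epithelium makes transthyretin in very large amounts, carries water and ion transporters, and is one of the sites where the serotonin receptor 5-HT2C is made. Htr2c is also known from neurons of several brain regions, so in dissected tissue its RNA can come from more than one kind of cell.

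The libraries came from hippocampi of embryos aged E16 to E18. The 189N3 mouse carries an additional copy of Dyrk1a on a bacterial artificial chromosome transgene (n = 3 libraries), and was set beside its own wild-type littermates (n = 3). The Dp(16)1Yey mouse is heterozygous for a duplication of the part of chromosome 16 from Lipi to Zbtb21, which includes Dyrk1a (n = 4), and was likewise set beside wild-type littermates of its own line (n = 4). The transgene model is 1 line, and neither model is restricted to a tissue, since the extra copies are present in every cell. Replicates are numbered from 0 in the labels and are listed in that order throughout. Nothing in the labels states that each library is a different embryo, so p-values measure the spread between these libraries only.

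The libraries held between 20809135 and 29098454 fragments. Dyrk1a had values of 3938 to 5877 in 189N3 mice and of 2126 to 2977 in their littermates. Dp(16)1Yey mice had 2124 to 4781, against 2397 to 3175 in littermates, and these ranges overlapped. The log2 difference of Dyrk1a was 0.89 (SE 0.24) in 189N3 mice and 0.22 (SE 0.23) in Dp(16)1Yey mice. In neither model did it reach an adjusted p under 0.05 in limma, so the gene with the extra copy was itself not called. For the duplicated region, log2 values were set against the mean of the Dp(16)1Yey littermates. The median of its named genes was then compared with that of all loci with a mean of at least 10. It was higher by 0.65, 0.07, 0.56 and 0.33 in the 4 Dp(16)1Yey libraries, where 3 copies in place of 2 correspond to 0.58. The library labelled Dp(16)1Yey replicate 1 thus showed little of the added dosage. Littermates, each part of that mean, lay between −0.16 and 0.16. Littermate replicates 0 and 1 of that line were nearly alike, as were replicates 2 and 3, with a spread of 1.56 and 1.83 times counting noise against 23.4 to 25.6 for the other pairs of these 4. The summed level of 12 hippocampal genes, 11 of which were found in the table, was 40072 to 63962 in every library. Most of that sum came from Zbtb18, Neurod6 and Nrp2, with means of 23751, 13980 and 5416 over all libraries. It therefore says little of the other genes of the list.

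Positions are those of GRCm38, the assembly also called mm10. Htr2c spans chrX:146962513-147197277 on the plus strand, Otx2 chr14:48657677-48673819 on the minus strand, Kl chr5:150952607-150993817, Folr1 chr7:101858331-101870788 and Sostdc1 chr12:36314139-36318452. Aqp1 at chr6:55336432-55348555 and Slc4a5 at chr6:83219828-83304945 share a chromosome. Kcne2 at chr16:92292389-92298129 and Clic6 at chr16:92485736-92541243 are neighbours inside the duplicated region, so Dp(16)1Yey mice carry 3 copies of them. Each position is that of the annotated gene, exons and introns included.

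Start sites in RefSeq (GRCm38.p6) were searched for 6 of the 10 genes. It held none for Folr1, Clic6 and Sostdc1, and Ttr was left out of the search. The 250 bases before a start are shown for Htr2c and Kl, which varied together across libraries, as described further on. They are also shown for Kcne2 and Aqp1, which of these genes varied most closely with Ttr, and for the start of Otx2 that holds the motif. Otx2 is the homeobox factor required for choroid plexus epithelium, and its core motif TAATCC was searched on both strands. Of 10 starts of these genes, 1 held it, the start of Otx2 shown here with the match in capitals, read on the opposite strand as GGATTA and beginning 211 bases before the start. Of 32851 mouse starts, 2054 (6.25%) held the motif in the same window. The absence of a match says only that these letters are not in this window.
Htr2c, chrX:146962263-146962512, plus strand: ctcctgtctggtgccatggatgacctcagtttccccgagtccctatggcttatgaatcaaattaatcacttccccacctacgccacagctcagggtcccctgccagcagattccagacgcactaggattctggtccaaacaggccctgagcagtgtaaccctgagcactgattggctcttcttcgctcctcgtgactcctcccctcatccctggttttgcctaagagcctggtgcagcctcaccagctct
Kl, chr5:150952357-150952606, plus strand: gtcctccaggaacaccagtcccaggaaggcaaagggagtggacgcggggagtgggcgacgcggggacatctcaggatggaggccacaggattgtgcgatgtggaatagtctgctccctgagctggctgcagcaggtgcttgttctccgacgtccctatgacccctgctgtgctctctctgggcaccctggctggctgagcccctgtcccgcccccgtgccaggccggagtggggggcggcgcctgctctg
Kcne2, chr16:92292139-92292388, plus strand: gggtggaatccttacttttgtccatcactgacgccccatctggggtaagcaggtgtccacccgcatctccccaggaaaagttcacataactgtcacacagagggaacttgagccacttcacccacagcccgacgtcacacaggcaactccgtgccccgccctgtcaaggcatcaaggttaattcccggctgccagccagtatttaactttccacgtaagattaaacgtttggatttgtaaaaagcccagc
Aqp1, chr6:55336049-55336298, plus strand: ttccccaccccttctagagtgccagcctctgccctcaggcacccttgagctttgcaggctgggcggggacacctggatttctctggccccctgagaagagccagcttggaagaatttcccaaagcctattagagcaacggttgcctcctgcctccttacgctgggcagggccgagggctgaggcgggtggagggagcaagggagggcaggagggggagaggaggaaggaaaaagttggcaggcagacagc
Otx2, chr14:48665110-48665359, minus strand: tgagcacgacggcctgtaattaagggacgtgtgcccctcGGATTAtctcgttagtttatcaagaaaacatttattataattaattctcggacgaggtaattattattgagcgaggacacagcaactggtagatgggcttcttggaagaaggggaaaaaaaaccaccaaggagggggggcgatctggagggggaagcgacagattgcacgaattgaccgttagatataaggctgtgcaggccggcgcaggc

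Values are normalized fragments, that is, the fragments assigned to a locus divided by a size factor of the library, with 1 fragment worth between 0.816 and 1.21 units. Per kilobase of exon, Ttr had the highest level of the 10 genes, with a median of 503 and a range from 98.3 to 11363 over the 14 libraries. Otx2 (22.3), Htr2c (19.4), Sostdc1 (17.9), Clic6 (17.9), Folr1 (12.8), Aqp1 (11.5) and Kcne2 (10.4) followed with medians per kilobase whose neighbours did not differ beyond their ranges. Slc4a5 (2.19) and Kl (1.08) were lowest. In fragments not divided by length, the highest library exceeded the lowest by 116-fold for Ttr, 56.7-fold for Aqp1, 35.98-fold for Slc4a5 and 28.8-fold for Folr1. The spread was narrower for Clic6 (13.4-fold), Htr2c (10.99-fold), Sostdc1 (8.34-fold), Otx2 (6.05-fold) and Kl (5.72-fold). Kcne2 ran from 0 to 231, which gives no fold over all libraries, and within the 189N3 littermates it spanned 95.7-fold against 52.03-fold for Ttr. In bulk tissue, fewer cells of a type and less RNA per cell cannot be told apart.

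**Figure D1:**
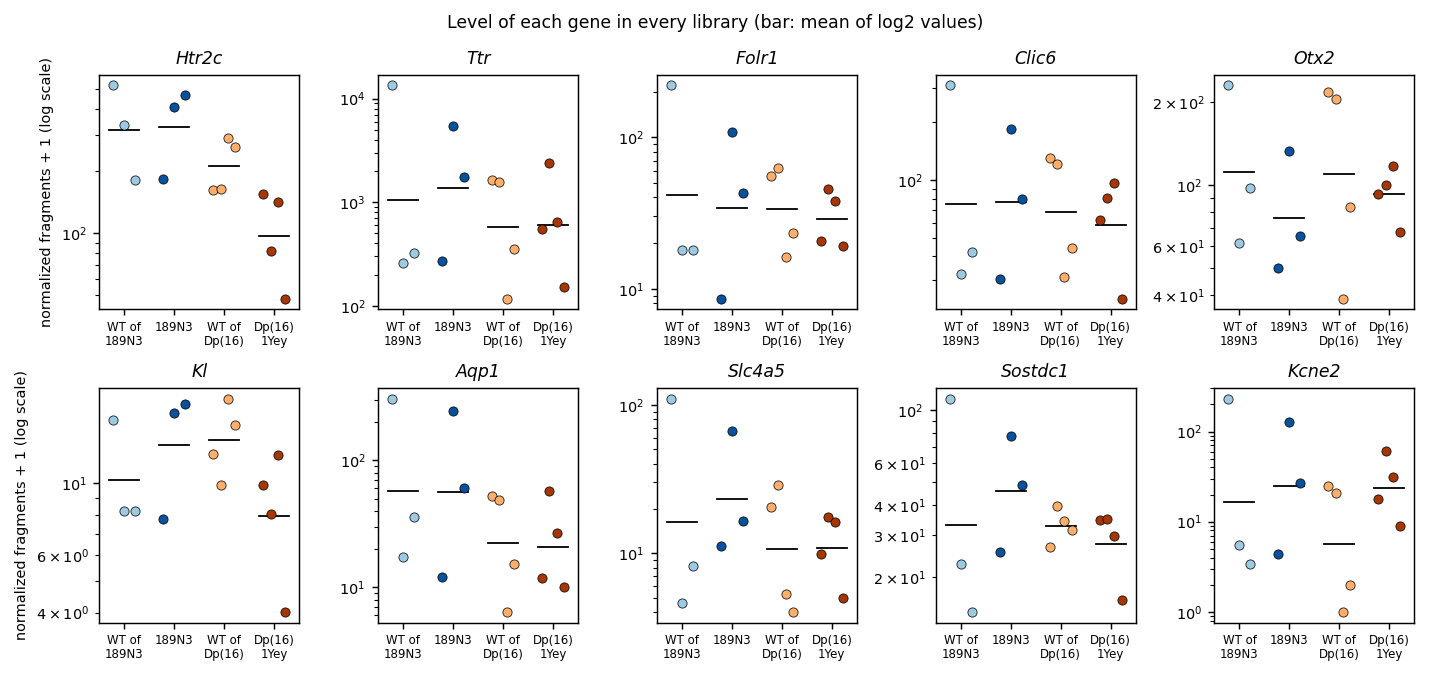
Normalized fragments of the 10 genes in each of the 14 libraries, 1 panel per gene, plotted as value + 1 on a log axis that differs between panels, with points for libraries and a bar for the mean of each group's log2 values. Ttr runs from 117 to 13477 with every group spread widely, whereas the 4 Dp(16)1Yey points of Htr2c (47.3 to 154) all lie below those of their littermates (161 to 287).

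Htr2c encodes the 5-HT2C receptor, which signals through Gq and phospholipase C. In 189N3 mice its values were 183, 408 and 465 normalized fragments, and in their littermates 519.8, 334 and 180.1. The groups overlapped over nearly their whole range, with means of 352 ± 149 (SD, n = 3) and 345 ± 170.1 (SD, n = 3). The log2 difference was 0.05 (SE 0.39), and the exact two-sided permutation test gave p = 0.90, where 3 against 3 libraries cannot go below 0.10.

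The 4 Htr2c values of Dp(16)1Yey mice were 154, 81.1, 141 and 47.3, and in littermates 161, 163, 287 and 259.9. All 4 Dp(16)1Yey libraries were below all 4 littermates, although replicate 0 at 154 lay close to the lowest littermate at 161. The mean was 106 ± 50.4 in the 4 Dp(16)1Yey libraries and 218 ± 65.3 in the littermates (SD). On the log2 scale the difference was −1.13 (SE 0.36), or 0.457-fold. Htr2c was 1 of 10 genes whose groups did not overlap here, where 2.45% of 36024 loci tested had groups apart in either direction and 0.736% had Dp(16)1Yey lower. The rule used these values, so nothing is read from that count. Without the library that showed little added dosage, the difference was −1.05, and with each nearly alike pair of littermates averaged it was −1.13. It was smallest without Dp(16)1Yey replicate 3, at −0.80.

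The difference between the 2 models in the Htr2c effect was −1.18 on the log2 scale (SE 0.62), and since it contains the values that chose the gene it carries no test either. The wild-type littermates of the 2 lines were 345 ± 170.1 and 218 ± 65.3, a log2 difference of −0.58 (SE 0.35) from the 189N3 to the Dp(16)1Yey line. It holds littermate values that chose the gene, so it too carries no test. That distance between control groups is about as large as the spread inside the first of them.

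Ttr encodes transthyretin, the thyroid hormone and retinol carrier that marks choroid plexus epithelium. In 189N3 mice it had 269.9, 5478 and 1740.4 normalized fragments, and in their littermates 13477, 259 and 326. Dp(16)1Yey mice had 556, 2392, 638 and 151, and their littermates 1633, 1582, 117 and 351. Libraries of 1 genotype thus differed far more from each other than genotypes did, and littermate replicate 0 of the 189N3 line held the highest value of all. The log2 difference was 0.39 (SE 1.18) in 189N3 mice and 0.07 (SE 0.91) in Dp(16)1Yey mice. The first ran from −0.61 without littermate replicate 1 to 2.23 without littermate replicate 0.

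Aqp1, the water channel of the apical membrane, followed the same libraries, with values of 10.998, 246 and 59.2 in 189N3 mice and 306, 16.2 and 35.04 in littermates. Values in Dp(16)1Yey mice were 10.9, 56.4, 25.5 and 9.06, and in littermates 51.5, 47.5, 5.40 and 14.2. Folr1, the folate receptor that moves folate into cerebrospinal fluid, ranged from 7.61 to 108 in 189N3 mice, 16.9 to 219 in their littermates, 18.1 to 44.7 in Dp(16)1Yey mice and 15.1 to 61.4 in theirs. Slc4a5, a sodium bicarbonate cotransporter, ranged from 10.2 to 65.3, 3.61 to 109, 4.03 to 16.5 and 3.03 to 27.7 in the same groups. For each of these 3 genes the library with the most Ttr was also the highest. Their log2 differences lay between −0.28 and 0.52 in 189N3 mice and between −0.23 and 0.04 in Dp(16)1Yey mice, all within 1 SE.

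Otx2 was less variable, with 49.1, 132 and 64.3 in 189N3 mice, 229, 60.5 and 96.7 in littermates, 92.0, 98.7, 116 and 66.4 in Dp(16)1Yey mice, and 215, 204, 37.8 and 81.9 in littermates. Its Dp(16)1Yey values all lay inside the range of the littermates. Its log2 differences were −0.55 (SE 0.44) in 189N3 and −0.24 (SE 0.47) in Dp(16)1Yey mice. Sostdc1, a secreted antagonist of BMP and Wnt signalling, had 24.5, 76.7 and 47.7 in 189N3 mice, 111, 21.7 and 13.3 in littermates, 33.6, 34.1, 28.6 and 15.1 in Dp(16)1Yey mice, and 25.8, 38.6, 33.5 and 30.3 in littermates. The only low value outside the littermates' range in the Dp(16)1Yey line was replicate 3, the library also lowest in Htr2c.

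Kl encodes klotho, the co-receptor for FGF23 that is made in choroid plexus and kidney. Its levels were low throughout, with 6.77, 15.5 and 16.6 in 189N3 mice and 14.7, 7.22 and 7.25 in littermates. Dp(16)1Yey mice had 8.90, 7.05, 11.2 and 3.02, and in littermates 11.3, 8.91, 17.3 and 14.2. The Dp(16)1Yey libraries were mostly below the littermates but overlapped them at 8.91 to 11.2. The log2 difference of −0.78 (SE 0.41) gave an exact permutation p of 0.0571, where 4 against 4 libraries allow 0.0286, and an adjusted p of 0.909 in limma. That permutation counts the nearly alike littermates as separate libraries, and 4 against 2 could not go below 0.0667. In 189N3 mice the difference was 0.36 (SE 0.46). Values near 10 rest on about as many fragments, so counting error is a large part of their spread.

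**Figure D2:**
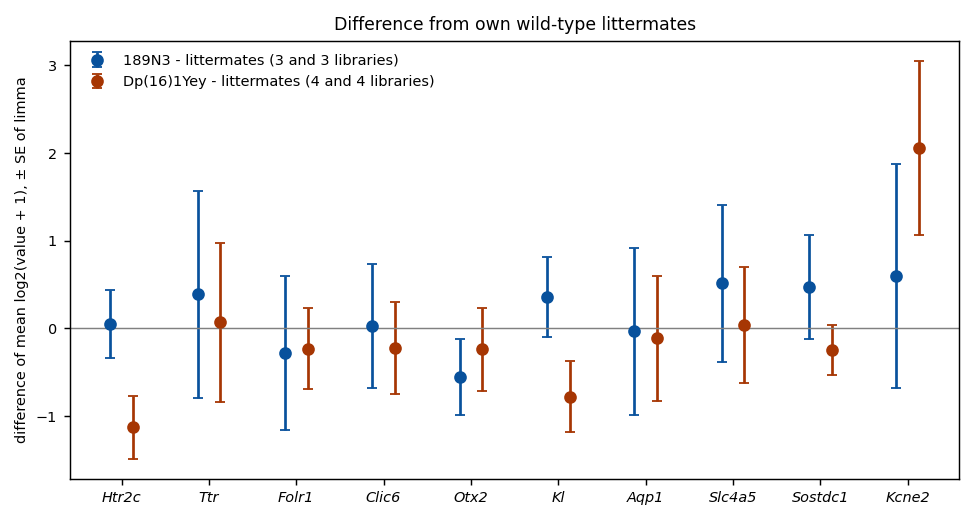
Log2 differences of the 10 genes between each model and its wild-type littermates, with bars of 1 SE from limma on log2(normalized fragments + 1). In Dp(16)1Yey mice Htr2c lies at −1.13 and Kcne2 at 2.06, while most of the others lie within 1 SE of 0 in both models.

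Over the 10 genes, 7 had a positive and 3 a negative difference in 189N3 mice, with a median of 0.20, where 56.2% of all 35899 loci tested lay below 0. None had groups that did not overlap (4.98% of loci), none had an unadjusted p under 0.05 in limma (1.87% of loci), and none passed the adjusted threshold, which 0% of loci did. With edgeR 2 of these differences were positive and 8 negative (median −0.41), and with DESeq2 3 and 7 (median −0.38). The limma median ran from −0.60 without 189N3 replicate 1 to 1.11 without littermate replicate 0, and was also negative without littermate replicate 1 (−0.48) or 2 (−0.38). Of the differences in Dp(16)1Yey mice 3 were positive and 7 negative, with a median of −0.23, where 45.1% of 36024 loci lay below 0. That median was 0.11 without Dp(16)1Yey replicate 3, 0.087 without littermate replicate 0 and 0.063 without littermate replicate 1. Of the 9 genes other than Htr2c, none had an unadjusted p under 0.05 (3.53% of loci) and none passed the adjusted threshold (0% of loci). For the difference between the models none of the 9 genes other than Htr2c passed either, with 0% of 36045 loci past the adjusted and 2.66% past the unadjusted threshold. Between the wild-type groups 3.75% of 36047 loci passed the adjusted threshold and none of the 9 genes other than Htr2c did. edgeR and DESeq2 on the recovered fragments called none of these genes either.

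Kcne2, a potassium channel subunit of the apical membrane of choroid plexus epithelium, had 3.38, 128 and 25.9 normalized fragments in 189N3 mice and 231, 4.51 and 2.42 in their littermates. Its values were 16.8, 59.9, 30.6 and 8.05 in Dp(16)1Yey mice, and in their littermates 23.7, 19.8, 0 and 1.01. Here the Dp(16)1Yey values lay higher but overlapped the first pair of littermates. The log2 difference was 2.06 (SE 1.00), with an exact permutation p of 0.20 and an adjusted p of 0.909 in limma. With littermates at 0 and at 1 fragment its size follows the pseudocount, from 3.06 with 0.1 to 0.91 with 10. It was 1.22 without littermate replicate 2 and 1.60 without Dp(16)1Yey replicate 1.

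Because choroid plexus genes varied together, Kcne2 was also set against Ttr of the same library, a ratio chosen after the values were seen. Per 1000 Ttr fragments, Kcne2 had 30.2 (95% exact interval 17.5 to 48.9), 25.1 (18.6 to 33.1), 48.0 (32.1 to 69.2) and 53.3 (22.6 to 108) in the 4 Dp(16)1Yey libraries. Their littermates had 14.5 (9.17 to 21.9), 12.5 (7.62 to 19.4), 0 (0 to 34.7, or up to 27.8 for 3 fragments) and 2.88 (0.0728 to 16.2). The 189N3 mice had 12.5, 23.4 and 14.9, and their littermates 17.2, 17.4 and 7.41. All 4 Dp(16)1Yey libraries, the one with little added dosage included, were above the 10 others, although the intervals of single libraries overlapped and cover counting error only. None of the other 8 genes separated Dp(16)1Yey mice from littermates in this ratio. Of 36023 loci 1 did so with Dp(16)1Yey higher (0.00278%), which is Kcne2, and since the ratio of a locus that does not vary with Ttr follows Ttr itself, that share is no measure of how rare such a pattern is among choroid plexus genes.

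A second scale, the log2 level relative to the mean of Ttr, Folr1, Otx2, Kl, Aqp1, Slc4a5 and Sostdc1, gave Kcne2 −0.61 ± 0.45 (SD, n = 4) in Dp(16)1Yey mice and −2.88 ± 1.45 (SD, n = 4) in littermates. These 2 groups did not overlap, with −1.001 to 0.0025 against −4.36 to −1.47. The 189N3 mice had −2.37 to −0.21 and their littermates −3.12 to −0.022, so both overlapped the Dp(16)1Yey mice on this scale. Between Dp(16)1Yey mice and littermates the difference was 2.27. With 0 fragments and 1 fragment in a pair of littermates it followed the pseudocount, from 3.28 with 0.1 to 1.07 with 10. Clic6, the chloride intracellular channel protein gene next to it in the duplicated region, did not show this. It had 0.70 ± 0.34 and 0.72 ± 0.16 on the same scale, a difference of −0.01. In normalized fragments Clic6 had 61.3, 79.9, 95.9 and 23.1 in Dp(16)1Yey mice and 129.8, 121, 30.2 and 43.5 in littermates, a log2 difference of −0.23 (SE 0.53). In 189N3 mice it had 29.6, 184 and 78.9, against 311, 31.6 and 41.1 (log2 difference 0.03, SE 0.71). The values of both genes thus overlapped between genotypes before they were set against the other choroid plexus genes, and Clic6 overlapped also afterwards.

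**Figure D3:**
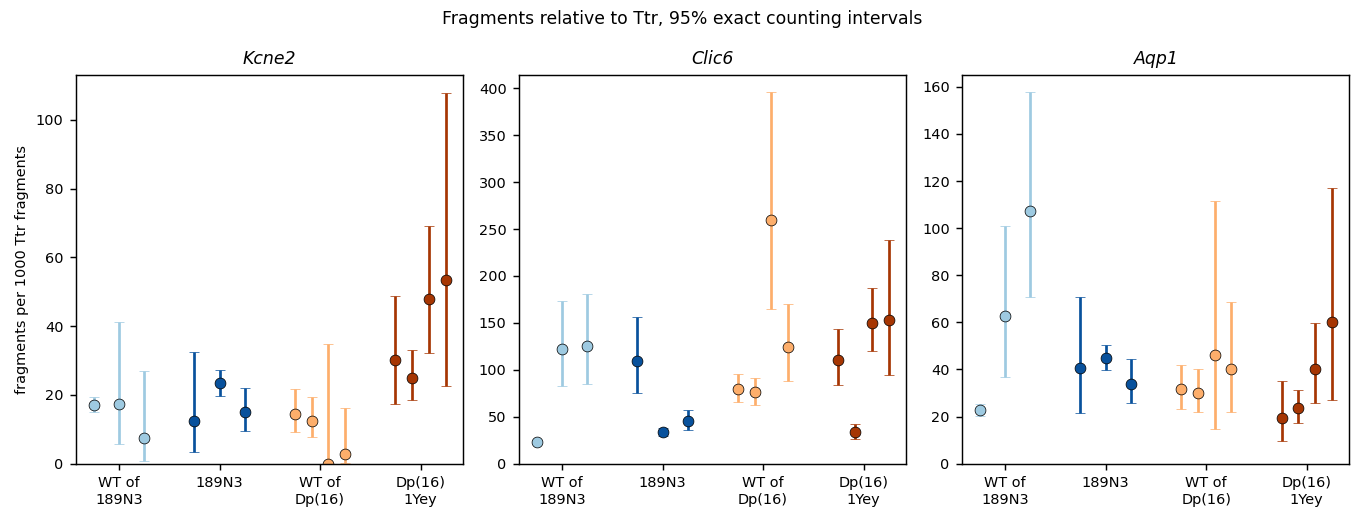
Kcne2, Clic6 and Aqp1 fragments per 1000 Ttr fragments in each library, by group, on linear axes that differ between panels, with exact 95% intervals for counting error. The Dp(16)1Yey points of Kcne2 (25.1 to 53.3) lie above the other 10 libraries, whereas those of Clic6 (33.4 to 153) and Aqp1 (19.6 to 60.0) overlap their littermates (76.3 to 259 and 30.02 to 46.3).

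Across the 14 libraries, with group means subtracted on the log2 scale, most of the genes varied with Ttr. Pearson's r with Ttr was 0.97 for Kcne2 and Aqp1, 0.96 for Clic6, 0.95 for Folr1, 0.93 for Slc4a5, 0.87 for Otx2 and 0.82 for Sostdc1. Kl (0.48) and Htr2c (0.38) stood apart from these. Htr2c was instead closest to Kl (0.92) and Sostdc1 (0.73), with 0.46 for Clic6, 0.43 for Folr1, 0.28 for Aqp1 and 0.10 for Otx2. These values describe 14 libraries that share dissection, depth and size factors with both genes of a pair, and they carry no test.

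**Figure D4:**
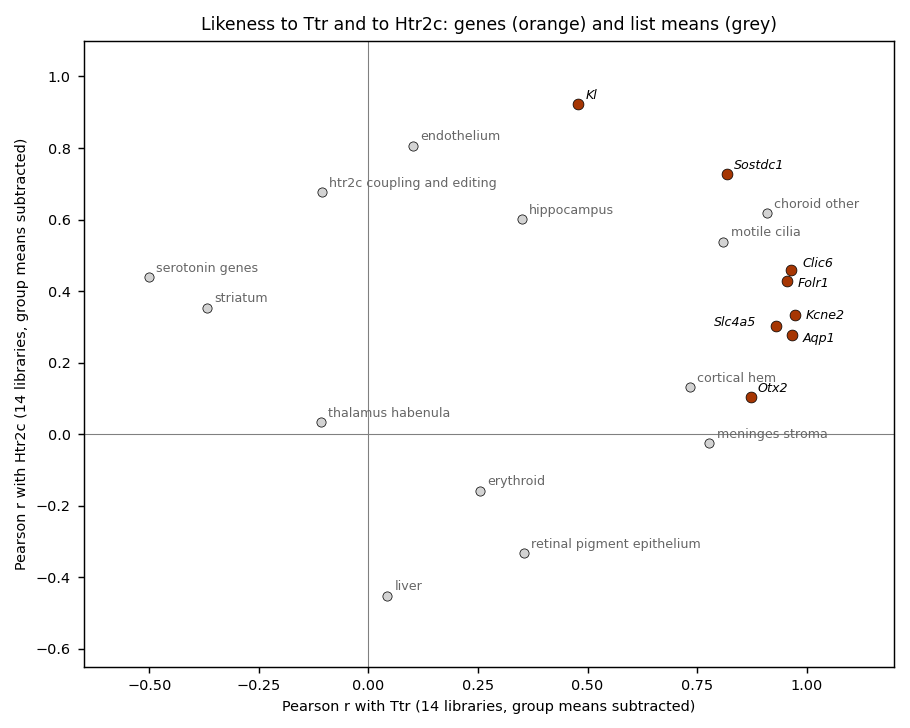
Pearson's r with Ttr (horizontal) and with Htr2c (vertical) over 14 libraries after group means were subtracted, for 8 of the genes (orange) and for the mean of each gene list (grey). Kcne2, Aqp1, Clic6, Folr1 and Slc4a5 sit together at the right (r with Ttr of 0.93 to 0.97), and Kl sits alone at the top (r with Htr2c of 0.92).

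Between Htr2c and Ttr themselves, r over all 14 libraries without subtraction was 0.39 and Spearman's rho 0.24. Without the 2 libraries farthest from the median of Ttr, r was 0.00038, so the relation rested on those libraries. Within the 189N3 line (n = 6), r was 0.81 (exact permutation p = 0.05, adjusted 0.15) and rho 0.71 (exact permutation p = 0.136, adjusted 0.408), with r of 0.74 without 2 libraries. Within the Dp(16)1Yey line (n = 8), r was −0.11 and rho −0.31, with r of 0.56 without 2 libraries. The 2 lines were not tested against each other, and p-values were adjusted over these 3 correlations of each kind. Correlations that include the Dp(16)1Yey line hold the Htr2c values that chose the gene, so they are given without p. The nearly alike littermates of that line count as separate libraries in them.

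**Figure D5:**
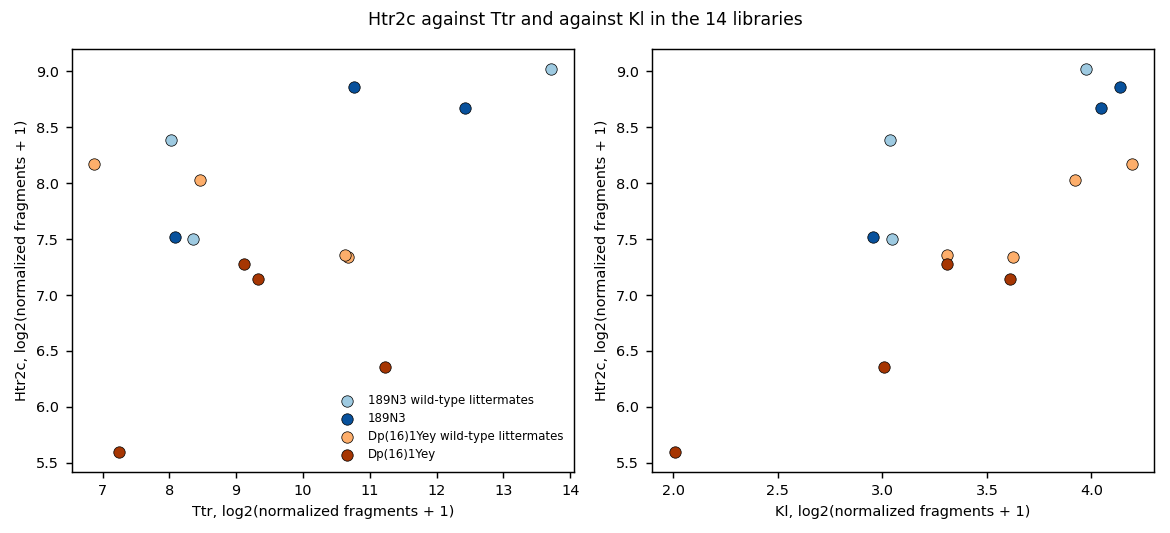
Htr2c against Ttr (left) and against Kl (right), in log2(normalized fragments + 1), 1 point per library and coloured by group. Over the 14 libraries, without group means subtracted, r of Htr2c was 0.39 with Ttr and 0.80 with Kl, a gene of few fragments. Both hold the Dp(16)1Yey values that chose Htr2c. Within the lines r with Ttr was 0.81 (189N3) and −0.11 (Dp(16)1Yey).

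Outside the 10 genes, those most like Ttr among 11243 genes with a mean of at least 100 were Wdr78 (r = 0.95), Dab2 (0.92), Sulf1 (0.91), the carbonic anhydrase Car12 (0.90), the lysosomal peptidase Tpp1 (0.90), Wdr96 (0.89), fibrillin 1 (Fbn1, 0.89), Lrriq1 (0.88), Fras1 (0.88) and Evc (0.87). Among the nearest to Htr2c were Cpsf3 (0.95), a subunit of the complex that cleaves the 3′ ends of messenger RNAs, 5330417C22Rik (0.94), Epg5 (0.93), Ifitm2 (0.92), Bre (0.92), AK214641 (0.92), Epb4.1l4a (0.92), Leo1 (0.91) and 9030624J02Rik (0.91). No gene was among the 10 nearest of both.

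Of 40 further choroid plexus genes, 38 were found and 34 had a mean of at least 10. Only 10 of these had r of at least 0.8 with Ttr, among them Car12 and Enpp2 (0.84), the enzyme that makes lysophosphatidic acid, while 13 lay below 0.5. The abundant transporters of the list were among the steady ones. Slc12a2, the sodium potassium chloride cotransporter, ranged from 1312 to 2377 (r = 0.38), and the copper transporter Slc31a1 from 943 to 1436 (r = 0.54). Both are also known from many other cells. Kcnj13 ranged from 485 to 1339 (r = 0.29), with only 1.15% of the locus in annotated isoforms. For Slc12a2 that share was 32.8%, and for Lmx1a, among those with r of at least 0.8, it was 0%.

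In 189N3 mice 24 of the 36 of these genes tested lay below 0 (56.2% of all loci), with a median of −0.12 beside −0.04 for all loci. None had an unadjusted p under 0.05 in limma (1.87% of loci). The Dp(16)1Yey comparison had 26 of 33 below 0 (45.1% of loci), with a median of −0.31 beside 0.03. In it 3 genes had an unadjusted p under 0.05 (3.53% of loci), each lower and each with an adjusted p of 0.909 in limma. These were the cation channel Trpm3 (log2 difference −0.50, SE 0.21), the angiotensin-converting enzyme Ace (−1.23, SE 0.32) and Pcp4l1 (−1.31, SE 0.45), the last 2 named after their values were seen. Ace ranged from 28.2 to 73.2 in Dp(16)1Yey mice and from 75.2 to 153 in littermates. Ace is made by endothelium as well as by choroid plexus.

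Of 18 other genes of serotonin signalling found, 14 were tested in each model. In 189N3 mice 9 lay above 0 and 1 had an unadjusted p under 0.05, the receptor gene Htr1f (34.3 to 67.7 against 5.198 to 38.7, log2 difference 1.72, SE 0.53, adjusted p = 1.00 in limma). In Dp(16)1Yey mice 10 lay below 0 and again 1 had an unadjusted p under 0.05, the receptor gene Htr4 (19.4 to 51.4 against 32.7 to 65.8, log2 difference −0.80, SE 0.33, adjusted p = 0.909 in limma). In both cases the groups overlapped. Over all loci, 1.87% reached that level in 189N3 mice and 3.53% in Dp(16)1Yey mice, with 56.2% and 45.1% below 0. Of 12 genes of Gq coupling and of the editing of Htr2c RNA, 11 lay above 0 in 189N3 mice, with only Itpr1, the IP3 receptor, at an unadjusted p under 0.05 (log2 difference 0.60, SE 0.22, adjusted p = 1.00 in limma). In Dp(16)1Yey mice 10 of the 12 lay below 0 with none at that level, and Adarb1, an editing enzyme of Htr2c RNA named after its values were seen, differed by −0.39 (SE 0.30).

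Markers of other cells moved with these genes to different degrees. The mean of 8 endothelial genes had r of 0.81 with Htr2c, and their summed level was 4464, 2017, 3375 and 2050.0 in Dp(16)1Yey mice against 3602 to 3690 in littermates. The 2 lowest of these, replicates 1 and 3, were also the 2 lowest in Htr2c. Other list means with Htr2c had r of 0.68 for the coupling and editing genes and 0.62 for the 38 further choroid plexus genes. The hippocampal genes had 0.60, motile cilia 0.54 and the striatal genes 0.35. The striatal genes summed to 1581, 1785, 582 and 1217 in Dp(16)1Yey mice and to 728, 752, 3088 and 3100.4 in littermates. The littermates with the most Htr2c (287 and 259.9), a nearly alike pair, were thus those with the most striatal RNA. In Dp(16)1Yey mice replicate 1 had the most striatal RNA (1785) with Htr2c at 81.1. Replicate 2 had the least (582) with Htr2c at 141. The part of these cells in the Htr2c difference was not tested. With Ttr the closest list means were those of the 38 further choroid plexus genes (0.91), motile cilia (0.81), meninges and stroma (0.78) and the cortical hem (0.73).

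Of 4 liver genes found, which bear on Ttr as a liver product, the summed level was 4.04 to 84.6 and none reached a mean of 10, the highest sum being in Dp(16)1Yey replicate 1. Of 5 genes of the retinal pigment epithelium, which also makes Ttr and Otx2, 2 were tested, neither with an unadjusted p under 0.05 in either model. Over all loci tested, 56.2% lay below 0 in 189N3 mice and 45.1% in Dp(16)1Yey mice. An unadjusted p under 0.05 in limma was reached by 1.87% and 3.53% of loci. The meningeal genes had lower values in 9 of 10 cases in 189N3 mice, 4 with an unadjusted p under 0.05. They had higher values in 7 of 10 cases in Dp(16)1Yey mice, 3 of them at that level. The collagen gene Col1a2 differed by −1.44 (SE 0.36) in 189N3 and by 1.39 (SE 0.60) in Dp(16)1Yey mice, and the growth factor gene Igf2 by −0.71 (SE 0.30) and 0.75 (SE 0.29). The 3 erythroid genes tested were all lower in 189N3 mice at an unadjusted p under 0.05 and all above 0 in Dp(16)1Yey mice, 1 at that level. Of the remaining lists, 10 of 12 cilia genes, 8 of 10 cortical hem genes and 2 of 3 thalamic and habenular genes tested lay below 0 in 189N3 mice, and 8 of 11, 9 of 10 and 3 of 3 in Dp(16)1Yey mice. In the latter 7 of 8 endothelial, 8 of 11 hippocampal and 10 of 12 striatal genes also lay below 0, against 1 of 8, 4 of 11 and 3 of 11 in 189N3 mice. No gene of these lists passed the adjusted threshold in limma in either model. Between the wild-type groups, however, 4 of 10 meningeal genes (median of the list −1.87) and all 3 erythroid genes (median −2.33) passed it with lower values in the Dp(16)1Yey line, as did 2 endothelial genes (1 higher and 1 lower), 1 cilia gene (lower) and 1 coupling gene (higher). In the main fit the controls of the 2 models thus themselves differed in meningeal and erythroid genes. That fit called 1351 loci (3.75%) and counted the nearly alike littermates as separate libraries. Its calls fell to 85 without the intensity trend and to 13 to 78 with 1 library left out. Whether these genes stayed called was not tested.

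An unnamed locus antisense to Htr2c was abundant, and was looked at after its values were seen. It had 89.7, 344 and 109 in 189N3 mice, 1332, 119 and 94.3 in littermates, 68.2, 64.6, 102 and 57.4 in Dp(16)1Yey mice, and 146, 127, 106 and 98.1 in littermates. It was highest in the library with the most Ttr, and its r with group means subtracted was 0.80 with Ttr and 0.52 with Htr2c. The strand setting of the counting is not given in the sources used here, so reads of Htr2c and of this locus cannot be told apart with certainty. In the estimated isoform shares, 1 annotated form, uc009und.2, took 73.9% of all Htr2c fragments, with a median of 85.3% and a range of 35.1% to 97.2% over libraries. For Otx2 1 form, uc033gpq.1, took 69.1%, with a median of 75.9%. The Clic6 locus also contains 1 isoform of 2410124H12Rik, with 0.519% of its fragments.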

How the data were processed

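The 14 RNA-seq libraries of embryonic hippocampus were grouped by the labels alone. Reads (paired-end, 100 bp) were mapped by the authors to mm10 with TopHat and Bowtie, and Cufflinks assemblies were merged and quantified, correcting for fragment bias and for reads with several positions. Versions are not given in the sources used here. The methods describe stranded total RNA libraries, and the labels list polyA RNA. The signal values deposited by the authors are the fragments of a locus over a size factor, 1 for each library, and the isoform table splits them into estimated shares. All nonzero values (100%) were whole multiples of 1 fragment to within 0.02 of a fragment, or 1e-05 of the value where that is larger. In 4 libraries 1 fragment is within 2% of 1 unit, which makes this harder to show, and edgeR and DESeq2 rest on it. The authors' columns were all assigned, so 0 were left out. Of 59796 loci, 49110 had a mean of at least 1, 49062 were matched to the deposited transcript map by their values and 17498 were named. Positions come from GENCODE vM21 and promoters from RefSeq.

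Loci whose mean over the libraries compared was 10 or more were fitted as log2(value + 1) in limma 3.58.1 under R 4.3.3, each model against its littermates, with an intensity trend and no covariate. Adjustment was by Benjamini-Hochberg over all loci tested, at 0.05. The difference between models was an interaction over all 4 groups. The 10 genes had exact permutation tests as well, two-sided (SciPy 1.17.1, Python 3.11.15). These count nearly alike littermates as separate libraries. edgeR 4.0.16 and DESeq2 1.42.0 on recovered fragments were alternatives, beside other pseudocounts, filters and scalings, a replicate block, nearly alike littermates averaged, and each library left out. The fits were tested on simulated data. The replicate numbers do not pair the libraries.

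The 10 genes and the lists (further choroid plexus, serotonin, Htr2c coupling and editing, cilia, cortical hem, meninges, endothelium, erythroid, striatum, hippocampus, thalamus and habenula, liver and retinal pigment epithelium) were chosen with earlier results of these data known. The rule for named genes took the 10 genes, the 12 further choroid plexus genes with the highest means, serotonin, coupling and editing genes with an unadjusted p under 0.05 or among the 6 highest means, the 3 highest of each other list, and the 10 genes nearest to Htr2c and to Ttr. The text gives those that a result turns on, and 1 gene near Htr2c is not reported here.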

Additional observations from a re-analysis of the deposited data

How the results depend on the processing

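Leaving out Htr2c where its values of the Dp(16)1Yey line enter, no gene tested of the 10 was called under any alternative, but counts over all loci moved. With no loci called in the main comparisons, 189N3 mice had 4 with median-ratio size factors, 15 with DESeq2 and 0 to 28 with 1 library left out (28 without littermate replicate 1, 2 without littermate replicate 0). Dp(16)1Yey mice had 8 with DESeq2 and 0 to 3 with 1 library left out (3 without Dp(16)1Yey replicate 1), and the interaction 0 to 1. The 1351 loci between wild-type groups became 614 with no filter, 3262 with DESeq2, 85 without the trend and 13 to 78 with 1 library left out. Samples with the same replicate number did not deviate together (correlations of −0.32 to −0.03 in the 189N3 line and −0.45 to −0.07 in the other), so they share only a number. With the replicate number as a block, 72 loci were called in 189N3 mice, 0 in Dp(16)1Yey mice and 0 in the interaction.

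The Htr2c difference in Dp(16)1Yey mice was −1.16 to −1.05 over processing and −1.36 to −0.80 with 1 library left out, a direction that the choice of the gene fixed. Many of the other differences, none of them called, changed sign, the larger ones of 189N3 mice included. In 189N3 mice edgeR and DESeq2 gave Ttr −0.91 and −0.89, Clic6 −0.40 and −0.37, Slc4a5 −0.42 and −0.39, and Kcne2 −0.61 and −0.59, edgeR gave Sostdc1 −0.0033, and Aqp1 was 0.0091 with median-ratio factors and 0.039 with quantile normalization. In Dp(16)1Yey mice Ttr was −0.0040 with quantile normalization, −0.0075 with edgeR and −0.035 with alike littermates averaged, and Slc4a5 was −0.057 with a pseudocount of 10, −0.34 with edgeR and −0.31 with DESeq2. In the interaction edgeR and DESeq2 gave Ttr 0.91 and 0.91, Clic6 0.060 and 0.046, and Slc4a5 0.084 and 0.093, and Folr1 was −0.0055 with median-ratio factors, −0.011 with TMM and −0.00029 with quantile normalization. Between wild-type groups edgeR gave Otx2 0.031. The cause was not tested.

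With 1 library left out, the differences in 189N3 mice were −0.35 to 0.47 for Htr2c, −0.61 to 2.23 for Ttr, −1.12 to 0.92 for Folr1, −0.61 to 1.05 for Clic6, −1.10 to 1.17 for Aqp1, −0.39 to 1.90 for Slc4a5, −0.13 to 1.35 for Sostdc1 and −0.59 to 2.51 for Kcne2. In Dp(16)1Yey mice they were −0.69 to 0.73 for Ttr, −0.59 to 0.064 for Folr1, −0.60 to 0.20 for Clic6, −0.74 to 0.089 for Otx2, −0.71 to 0.30 for Aqp1, −0.42 to 0.52 for Slc4a5 and −0.36 to 0.013 for Sostdc1. In the interaction they were −2.17 to 0.68 for Ttr, −1.15 to 0.89 for Folr1, −1.28 to 0.38 for Clic6, −0.21 to 0.74 for Otx2, −1.28 to 0.99 for Aqp1, −1.86 to 0.43 for Slc4a5 and −0.46 to 2.65 for Kcne2. Between wild-type groups they were −1.88 to 0.97 for Ttr, −0.90 to 0.90 for Folr1, −0.74 to 0.89 for Clic6, −0.46 to 0.50 for Otx2, −1.51 to 0.78 for Slc4a5 and −0.62 to 0.86 for Sostdc1. Relative to the other choroid plexus genes, Clic6 was −0.136 to 0.0844 with 1 library left out. Kcne2 was 1.78 to 2.74 there, and 3.28 with a pseudocount of 0.1, 1.07 with 10 (both added after the values were seen) and 1.99 against Ttr alone. Kl and Kcne2 rest on few fragments, and their depth limits what could be seen.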
